A study of Mus musculus with 6 samples.

Results

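The nuclear genes for the subunits of the mitochondrial respiratory chain and of the ATP synthase were examined in bulk RNA sequencing of mouse growth plate cartilage. Members were taken by gene symbol: the Nduf genes of complex I, the Sdh genes of complex II, the Uqcr genes of complex III, the Cox4 to Cox8 genes of complex IV and the Atp5 genes of complex V, leaving out symbols with "-ps". These are 84 of the 46078 genes in the tables, with 36 in complex I, 4 in complex II, 9 in complex III, 18 in complex IV and 17 in complex V. The rule used names only and no measured value, but earlier results of these data were known when the members were chosen. Of the 84, 81 passed the filter on low counts and were tested.

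The 3 control libraries came from Idh1 LSL/+ embryos and the 3 mutant libraries from Col2a1-Cre; Idh1 LSL/+ embryos, all at E18.5, with the growth plates of the distal femur and the proximal tibia in 1 sample, labelled as growth plate chondrocytes. Both groups therefore carried 1 Idh1 allele behind a lox-stop-lox cassette, and the mutant enzyme was switched on only in cells where the type II collagen promoter had driven Cre, which is known for its activity in chondrocytes. The controls were littermates without Cre, but the labels do not tie a library to a litter. The labels also state that animals were aged to 2 months, which differs from the stated age. Nothing in the labels says that each library was a separate embryo, so p-values measure the spread between these libraries.

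Electrons from NADH enter the chain at complex I and those from succinate at complex II. They pass through complex III and cytochrome c to complex IV, which reduces oxygen, and the proton gradient built on the way drives complex V. Most subunits are encoded in the nucleus and a few in the mitochondrial genome, and several complex IV subunits exist as a general form and a form known from striated muscle. Growth plate cartilage has no vessels, and its chondrocytes rely largely on glycolysis. IDH1 itself is a cytosolic enzyme that makes NADPH, and its tumor mutants convert 2-oxoglutarate to 2-hydroxyglutarate.

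Libraries held between 23445687 and 30415773 counts on genes, and 0.770% to 0.901% of them fell on the 84 members. The limit that a count of 0 allows, 3 counts, was 0.0986 to 0.128 CPM, the usual scaling of a count to its library total. Levels further on are CPM scaled with TMM factors, which balance composition between libraries. Idh1 stood at 37.2, 39.1 and 65.3 CPM in control 1, 2 and 3 and at 47.5, 47.7 and 56.2 CPM in mutant 1, 2 and 3, and since the mutant allele is expressed from the same gene this level does not check the labels. The pieces held more than cartilage: the 7 cartilage markers measured summed to 4816 to 8956 CPM and the 11 skeletal muscle markers to 16177 to 25020 CPM. The 5 bone markers summed to 33885 to 47951 CPM, of which Col1a1 made up 33168 to 47740 CPM. Such sums depend on the genes listed and are not shares of tissue. Control and mutant values did not overlap in 14.4% of all genes tested. They did not in 4 of 4 blood and erythroid markers (lower in mutants, median log2 fold change -1.34), in 4 of 5 tendon markers (lower, with 1, Tnmd, called by edgeR) and in 2 of 3 macrophage and leukocyte and 1 of 3 endothelial markers (both higher), and the cartilage, muscle, fat, bone and smooth muscle lists held 0 such markers. The part of these tissues in the members' levels was not tested. In a bulk sample, fewer cells of a type and less RNA per cell cannot be told apart. Counts on Y-linked genes were 512 in mutant 3 and 4193 to 5829 in the other 5 libraries, so mutant 3 stood apart.

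No subunit gene passed the test between mutant and control libraries. With edgeR's quasi-likelihood test and Benjamini-Hochberg adjustment over 16813 genes, 0 members were called at an adjusted p under 0.05, where 0.19% of all tested genes were called (9 higher, 0.0535%, and 23 lower, 0.137%). DESeq2 also called 0 members, with 1.15% of all genes called, and limma-voom called 0, with 0.113%. With the replicate number as a block, edgeR and DESeq2 called 0 members, with 0.0178% and 0.571% of all genes. At an unadjusted edgeR p under 0.05 there were 0 members, against 8.64% of all genes. In 0 of the 81 tested members did all mutant libraries lie above or below all control libraries, against 14.4% of all genes tested (6.83% higher and 7.62% lower). With control 1 left out this count was 13 members, or 16.0%, against 26.4% of all genes.

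The intervals bound the fold change of each gene in the bulk samples, 1 gene at a time and without adjustment over genes. They do not bound the change within chondrocytes, since the pieces held more than cartilage and Cre was not active in every cell type. The log2 fold change, mutant over control, was above 0 in 42 members and below 0 in 39, with a median of 0.0011 beside -0.0026 over all genes tested. It ran from -0.31 (Cox4i2) to 0.14 (Ndufs7). The 95% interval reached 0.23 to either side at the median member. It lay wholly within 0.3 log2 units of 0, a 1.23-fold change, in 56 of the 81 members, within 0.5, a 1.41-fold change, in 77, and within 1 in all 81. The widest bounds were -0.82 for Ndufs5 and 0.64 for Cox7a1. The plot of fold changes by complex shows these intervals.

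**Figure D1:**
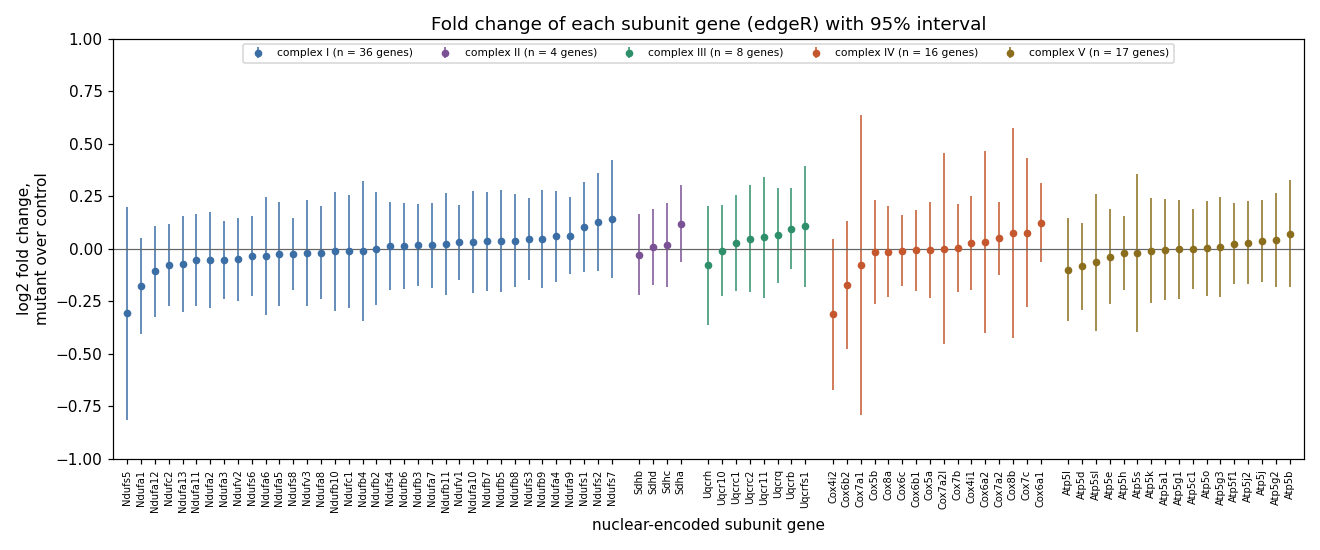
Log2 fold change (mutant over control, y axis) of each of the 81 tested subunit genes (x axis), ordered within complexes I to V. Points are edgeR estimates from 3 control and 3 mutant libraries and lines are 95% intervals; all 81 intervals include 0, and the widest belong to Ndufs5, Cox7a1, Cox8b, Cox7a2l and Cox6a2.

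Complex I oxidizes NADH and pumps protons. All of its 36 genes were tested; 18 log2 fold changes were above and 18 below 0, and their median was -0.0041. Ndufs1, the largest subunit, which carries iron-sulfur clusters, was at 87.1, 83.9 and 95.7 CPM in controls and 96.9, 105 and 84.8 CPM in mutants (log2 fold change 0.10, SE 0.10, edgeR adjusted p = 0.83). Ndufv1, the subunit that binds FMN and NADH, was at 93.9, 102 and 101 CPM in controls and 102, 107 and 93.8 CPM in mutants. In both genes mutant 3 was within or below the control range, so the groups overlapped.

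Ndufs7, an iron-sulfur subunit next to the quinone site, had the highest fold change of the complex. Its levels were 44.0, 46.1 and 54.5 CPM in controls and 58.3, 57.5 and 43.9 CPM in mutants, giving 0.14 (SE 0.13, edgeR adjusted p = 0.83). Mutant 1 and 2 lay above every control and mutant 3 below every control. Without mutant 3 its unadjusted edgeR p was below 0.05, as for 7.34% of all genes, and 0 members were called in that fit. The lowest fold change belonged to Ndufs5, described with its pseudogene further on.

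Levels can be compared between genes only per length, here as RPKM, which is the CPM divided by the length in kilobases of the union of a gene's exons. This union can be longer than the transcript in use, so orders of genes by RPKM are approximate. On that scale Ndufa4 was the highest gene of the complex I list, with a control mean of 207 RPKM, and Ndufb4 the lowest with 4.44 RPKM. NDUFA4 was named as a complex I subunit and is now counted with complex IV. Its levels were 96.0, 97.7 and 112 CPM in controls and 113, 111 and 94.8 CPM in mutants (log2 fold change 0.06, SE 0.10).

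Complex II is succinate dehydrogenase, the enzyme that both the citrate cycle and the chain use, and all its subunits are nuclear. Sdha, the flavoprotein that oxidizes succinate, was at 192, 187 and 187 CPM in controls and 207, 220 and 189 CPM in mutants. Mutant 1 and 2 were above all controls, and mutant 3 lay between control 1 and the other controls. The log2 fold change was 0.12 (SE 0.08, edgeR adjusted p = 0.76). The exact two-sided permutation test gave p = 0.2, where 0.1 is the smallest that 3 against 3 allows. This was the lowest p of that test among the 81 tested members and was not adjusted for their number.

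The other 3 subunits lay closer to 0. Sdhb, the iron-sulfur subunit, had a log2 fold change of -0.03 (SE 0.09), and the membrane anchors Sdhc and Sdhd had 0.02 (SE 0.09) and 0.0080 (SE 0.08). Sdhd was at 102, 106 and 105 CPM in controls and 105, 113 and 96.5 CPM in mutants. It was the highest of the complex per length, with a control mean of 81 RPKM, and Sdhc the lowest with 29.6 RPKM.

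Complex III passes electrons from quinol to cytochrome c. Among its 8 tested genes, 6 log2 fold changes were above and 2 below 0, with a median of 0.05. The extremes were Uqcrfs1, the Rieske iron-sulfur protein, at 0.11 (SE 0.13), and Uqcrh, the hinge protein, at -0.08 (SE 0.13). Uqcrfs1 was at 91.0, 98.8 and 113 CPM in controls and 116, 122 and 88.3 CPM in mutants. Mutant 3 was again the lowest of the 6 libraries and control 1 the next. Uqcrc1, a core subunit, had 0.03 (SE 0.10). Uqcrh was the highest of the complex per length, with a control mean of 151 RPKM. A second row named Uqcrc1, on an alternate patch sequence, was at 0 in every library and was not tested.

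Complex IV, cytochrome c oxidase, takes its catalytic core from the mitochondrial genome, and its nuclear subunits surround that core. Of its 18 genes, 16 were tested, with 8 above and 8 below 0 and a median of -0.0030. Cox6b1, Cox8a and Cox6a1, general forms of small subunits, were the highest per length, with control means of 293, 263 and 178 RPKM. Their log2 fold changes were -0.0073 (SE 0.09), -0.01 (SE 0.10) and 0.12 (SE 0.09). Cox6a1 had the highest fold change of the complex, with 117, 130 and 128 CPM in controls and 125, 141 and 143 CPM in mutants.

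Cox4i2, the Cox4 form known from lung and induced at low oxygen, had the lowest p of all members. Its levels were 12.4, 18.1 and 12.9 CPM in controls and 13.1, 11.2 and 10.7 CPM in mutants. Mutant 2 and 3 lay below every control, while mutant 1 lay above control 1 and control 3. The log2 fold change was -0.31 (SE 0.16, interval -0.67 to 0.05), with an unadjusted edgeR p of 0.0807 and an adjusted p of 0.65. Cox4i1, the general form, was at 223 to 273 CPM in controls and 237 to 274 CPM in mutants (log2 fold change 0.03, SE 0.10). Per length, Cox4i2 made up 9.88%, 12% and 8.53% of the Cox4 pair in controls and 9.04%, 7.44% and 8.15% in mutants. The mean share was 10.1% ± 1.75 (SD, n = 3) in controls and 8.21% ± 0.80 (SD, n = 3) in mutants, with mutant 1 inside the control range.

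The muscle forms of complex IV stood at different levels, with control means of 98.6 RPKM for Cox6a2, 44.2 RPKM for Cox8b and 17.4 RPKM for Cox7a1. Cox6a2 was at 48.9, 61.7 and 84.1 CPM in controls and 74.4, 72.8 and 51.7 CPM in mutants. Per length it made up 30.9%, 33.6% and 41.1% of the Cox6a pair in controls and 38.8%, 35.5% and 27.9% in mutants, a mean of 35.2% ± 5.31 against 34.1% ± 5.61 (SD, n = 3 each). The lowest share was in mutant 3 and the highest in control 3, and the groups overlapped over most of their range.

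Cox8b, the muscle form of Cox8, made up 13.0%, 13.3% and 16.3% of its pair in controls and 18.3%, 14.3% and 12.5% in mutants. Cox7a1, the form of heart and skeletal muscle, made up 7.91%, 16.0% and 9.56% of the pair with Cox7a2 in controls and 9.06%, 13.4% and 8.82% in mutants. Neither pair separated the groups, and the log2 fold changes were 0.03 (SE 0.19) for Cox6a2, 0.08 (SE 0.22) for Cox8b and -0.08 (SE 0.32) for Cox7a1. For the general forms they were 0.05 (SE 0.08) for Cox7a2 and -0.01 (SE 0.10) for Cox8a.

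The summed level of the 11 skeletal muscle markers was 16970, 18559 and 25020 CPM in controls and 23306, 22213 and 16177 CPM in mutants. Control 1 and mutant 3 had the lowest marker sums and the lowest Cox6a2 and Cox8b shares, while control 3 and mutant 1 had the highest of each, as the plot of muscle isoforms by library shows. Cox7a1 followed another order, highest in control 2. The median log2 fold change of the muscle markers was 0.03, with 0 of 11 called by edgeR and 0 at an unadjusted p under 0.05. Cox7a1 and Cox8b are also known from brown fat, and of the 4 fat markers Ucp1, Adipoq and Plin1 were at most 0.28 CPM in every library, while Cidea was at 2.76 to 5.34 CPM. The part of muscle tissue in the levels of these isoforms was not tested.

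**Figure D2:**
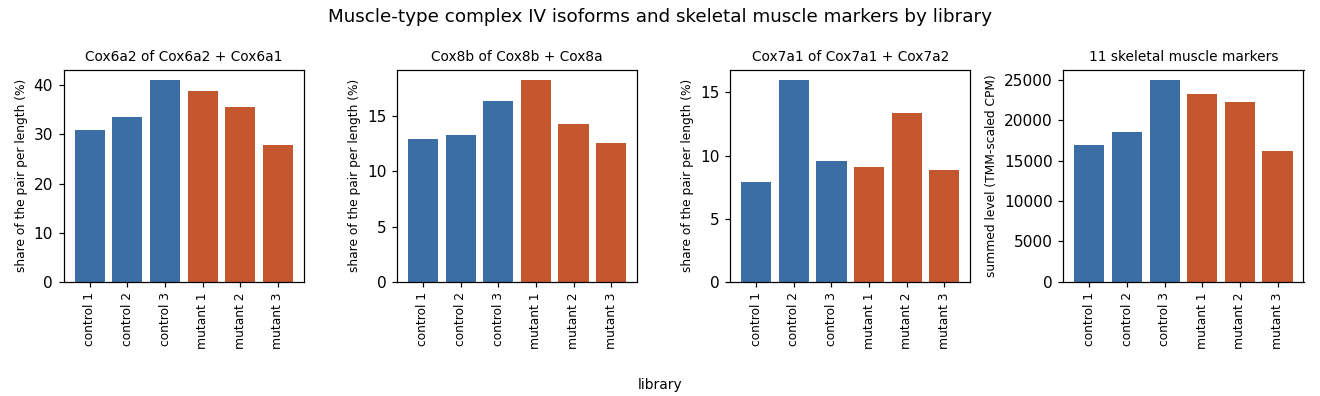
Share of the muscle form in the Cox6a, Cox8 and Cox7a pairs (percent, from length-scaled levels) and summed level of 11 skeletal muscle markers (TMM-scaled CPM) in each library, 1 bar per library. Cox6a2 and Cox8b shares and the marker sum are lowest in control 1 and mutant 3 and highest in control 3 and mutant 1; the Cox7a1 share is highest in control 2.

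Further forms of complex IV subunits are known from testis. Cox6b2, the testis form of Cox6b, was at 9.46 to 13.7 CPM over the 6 libraries, 2.65% to 4.07% of its pair per length, with a log2 fold change of -0.17 (SE 0.14). Cox7b, a general form, had 0.0041 (SE 0.09). Cox8c, another testis form, had 3, 7 and 2 counts in controls and 0 in each mutant, and Cox7b2 had 4 counts in control 2 and 0 elsewhere. Both were too low to be tested, and at these counts no level can be set against another.

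Complex V uses the proton gradient to make ATP. Its 17 genes had a median log2 fold change of -0.0034, with 7 above and 10 below 0. Atp5b, the catalytic beta subunit, was at 833, 843 and 986 CPM in controls and 955, 1014 and 828 CPM in mutants, and its log2 fold change of 0.07 (SE 0.11) was the highest of the complex. Atp5a1, the alpha subunit, was at 760, 737 and 856 CPM in controls and 822, 825 and 696 CPM in mutants (-0.0055, SE 0.11). Both genes were highest or nearly so in control 3 and mutant 2 and lowest or nearly so in mutant 3 and control 1 or 2. Per union exon length Atp5a1 led the complex with a control mean of 250 RPKM, before Atp5b with 209 RPKM. In CPM Atp5b was above Atp5a1 in every library. Its union was longer, 4237 against 3135 bases, so their order depends on the length used. Atp5s, a coupling factor, was lowest of all tested members with 2.97 RPKM.

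The c subunit of the ring that turns in the membrane is made from 3 genes with the same mature protein. Atp5g3 made up 75.8% to 76.4% of the trio per length in controls and 74.3% to 77.0% in mutants. Atp5g1 made up 11.6% to 13.5% in controls and 12.3% to 12.9% in mutants, and Atp5g2 10.5% to 12% and 10.6% to 12.8%. Their log2 fold changes were 0.0079 (SE 0.11), -0.0034 (SE 0.11) and 0.04 (SE 0.10). Of the read-length stretches, 66.0% in Atp5g1 and 100% in Atp5g2 also occurred in other genes, against 0% in Atp5g3. Reads with several alignments were left out, so the shares of Atp5g1 and Atp5g2 can be too low. The union exon length of Atp5g1, 4912 bases against 2181 for Atp5g3, can also exceed the transcript in use. The makeup of the trio is therefore uncertain. Atp5l, subunit g of the membrane part, had the lowest fold change of the complex, -0.10 (SE 0.11).

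Summed levels of each complex overlapped between the groups. All members together came to 7675, 8555 and 8815 CPM in controls and 8662, 8960 and 7717 CPM in mutants, a ratio of means of 1.01. The mean for complex I was 2302 ± 204 CPM in controls and 2318 ± 151 CPM in mutants (SD, n = 3 each), and for complex V it was 3328 ± 228 and 3364 ± 287 CPM. The ratios were 1.01, 1.03, 1.02, 1.01 and 1.01 for complexes I to V, each difference smaller than the SD of either group except for complex II. There the means were 485 ± 5.98 and 501 ± 37.1 CPM, and the difference was smaller than the SD of the mutants only.

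**Figure D3:**
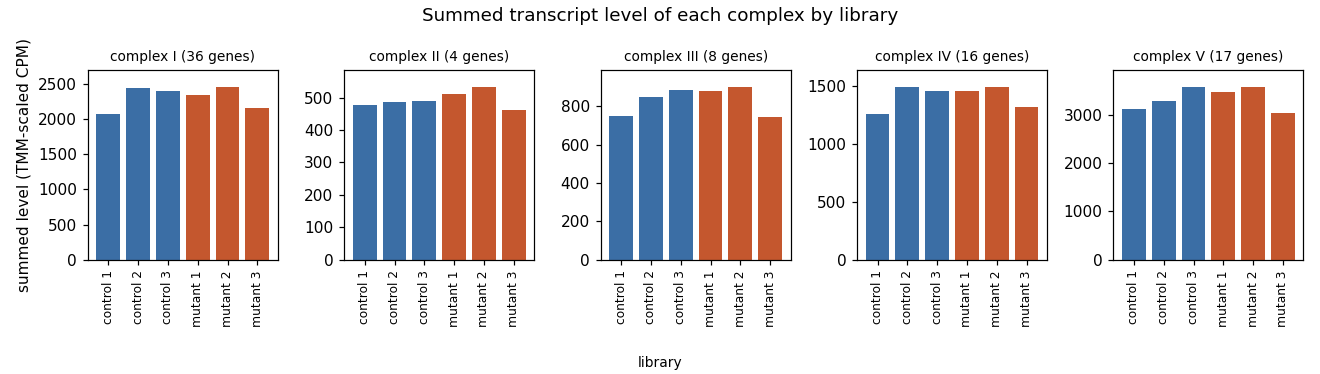
Summed level (TMM-scaled CPM, y axis from 0) of the tested and untested members of complexes I to V in each of the 6 libraries (x axis), controls in blue and mutants in orange; panel titles give the tested genes. Control 1 and mutant 3 have the lowest sum in every complex.

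The members varied together from library to library within each group. Control 1 was the lowest of the 6 libraries in 41 of the 81 tested members (50.6%) and mutant 3 in 27 (33.3%), whereas over all genes tested they were the lowest in 14.4% and 15.7%. The median member lay 0.13 log2 units below its mean over the 6 libraries in control 1 and 0.11 below in mutant 3, and between 0.04 and 0.08 above it in the other 4 libraries. The same 2 libraries had the lowest skeletal muscle marker sums, 16970 and 16177 CPM, and their part in this was not tested. The 2 low libraries belong to different groups.

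**Figure D4:**
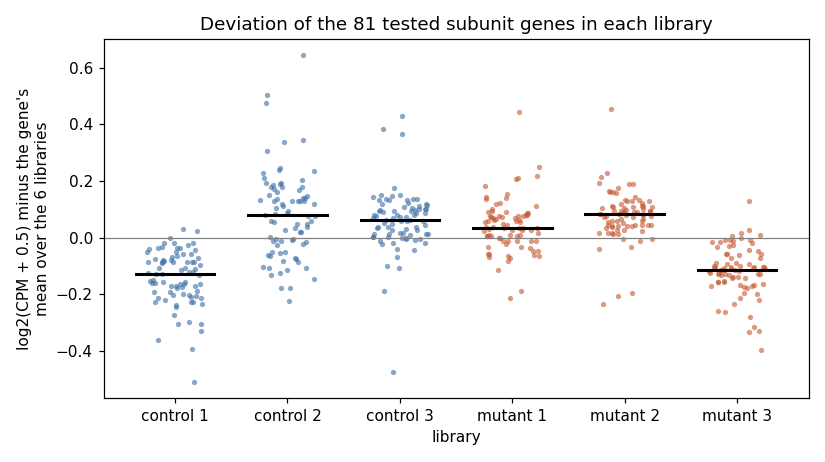
Deviation of log2(CPM + 0.5) from the gene's mean over the 6 libraries (y axis) for the 81 tested subunit genes (points) in each library (x axis), with the median as a black bar. The medians of control 1 (-0.13) and mutant 3 (-0.11) lie below 0 and those of the other 4 libraries between 0.04 and 0.08.

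Control 2 differed in another way. It was the highest library in 33 members. There the median member with a short union exon length lay 0.13 log2 units above its mean over the libraries. The median member with a long one lay 0.0078 above, and members of middle length were in neither group. Across the 81 members, the ratio of control 2 to control 1 had a Spearman correlation of -0.39 with the length of the principal transcript, and one of -0.28 with the union exon length. Across all 16813 genes the correlation with the union exon length was -0.18. These are descriptions across genes of the same libraries. Within groups the SD of log2 level had a median of 0.13 over the members, 0.15 over all genes tested and 0.11 over the 8737 genes in the same range of level.

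The members with the largest within-group SD were Cox7a1 (0.50), Ndufs5 (0.38), Cox8b (0.37), Cox7a2l (0.36) and Cox6a2 (0.34). For Ndufs5 and Cox7a2l the spread goes with a processed pseudogene, an intronless copy of the messenger RNA elsewhere in the genome. The sequences are shown because they are what tells a read of the gene from a read of its copy. Ndufs5, an accessory subunit of complex I, lies at chr4:123712710-123718202 (GRCm38, minus strand), and its copy BC002163 on chromosome 16. The copy's 319 annotated bases align to the transcript of Ndufs5 with 2 mismatches and no gap (99.4% identity). Both mismatches fall in 1 coding exon, in the 100 bases below, where capitals mark the bases that differ (chr4:123715975-123716074, minus strand, and chr16:42955636-42955735, plus strand; transcripts of GENCODE M21).
Ndufs5: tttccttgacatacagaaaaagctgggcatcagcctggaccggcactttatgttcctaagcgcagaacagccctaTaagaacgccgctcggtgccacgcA
BC002163: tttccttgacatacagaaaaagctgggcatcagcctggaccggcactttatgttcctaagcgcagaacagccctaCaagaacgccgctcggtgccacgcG

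Ndufs5 was at 9.40, 15.6 and 16.6 CPM in controls and 14.3, 10.3 and 9.15 CPM in mutants (log2 fold change -0.31, SE 0.23, edgeR adjusted p = 0.78). BC002163 had 212, 32 and 31 counts in controls and 19, 220 and 233 counts in mutants. The 3 libraries low for Ndufs5, namely control 1, mutant 2 and mutant 3, were the 3 libraries high for the copy. The sum of both was 16.9, 16.7 and 17.7 CPM in controls and 15.1, 19.2 and 17.2 CPM in mutants. Its highest library was 1.28 times its lowest, against 1.82 times for Ndufs5 alone, and the log2 ratio of the mutant to the control mean of the sum was 0.0038. Reads that aligned to more than 1 place were left out of the counts, and the cause of the split between gene and copy was not tested.

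Cox7a2l encodes a factor that joins complexes III and IV into a supercomplex. It lies at chr17:83501919-83514333 (minus strand), and its copy Gm6969 on chromosome 12. Of the copy's 342 bases, 336 align to Cox7a2l with 2 mismatches and 2 gaps (99.4% identity). The stretch below lies in 1 coding exon and holds 1 of the mismatches, in capitals (chr17:83502616-83502715 and chr12:24638682-24638781, both minus strand).
Cox7a2l: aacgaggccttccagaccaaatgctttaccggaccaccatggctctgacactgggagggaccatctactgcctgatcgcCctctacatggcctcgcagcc
Gm6969: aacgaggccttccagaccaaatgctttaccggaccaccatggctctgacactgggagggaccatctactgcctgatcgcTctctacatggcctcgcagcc

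Cox7a2l was at 65.3, 100.4 and 50.8 CPM in controls and 73.9, 77.5 and 65.4 CPM in mutants. Gm6969 had 248, 33 and 522 counts in controls and 200, 235 and 372 counts in mutants. Control 2 was the highest for the gene and the lowest for the copy, and control 3 the reverse. The sum ran over 74.1, 101.5 and 69.6 CPM in controls and 82.4, 87.1 and 78.2 CPM in mutants, its highest library 1.46 times its lowest against 1.98 times for the gene alone. The log2 fold change of the gene was 0.0011 (SE 0.20).

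**Figure D5:**
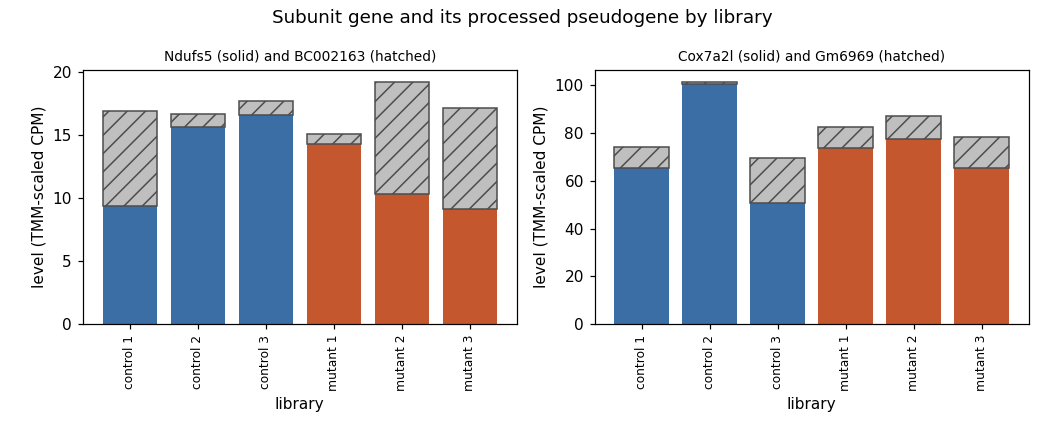
Level (TMM-scaled CPM, y axis from 0) of Ndufs5 with BC002163 and of Cox7a2l with Gm6969 in each library (x axis); solid bars are the subunit gene and hatched bars on top the processed pseudogene, so the full height is their sum. Where BC002163 is high (control 1, mutant 2, mutant 3), Ndufs5 is low, and the sums vary less than the genes.

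Shared sequence was common among the members. In 35 of them at least 1 stretch of 50 bases, the read length, occurred in the annotated transcript of another gene. It made up more than 50% of the stretches in 6 members: Atp5g2, Atp5l, Atp5h, Atp5g1, Ndufa12 and Cox7c. Not every copy was high where its gene was low. Gm15920, the copy of Ndufa12, had 112, 292 and 254 counts in controls and 109, 116 and 138 in mutants. Ndufa12 was at 38.0, 45.4 and 46.0 CPM in controls and 39.1, 42.7 and 38.4 CPM in mutants. Their sum had its highest library 1.31 times its lowest, against 1.21 times for Ndufa12 alone. Counting also ignored strand, and 27 members overlap an exon of another gene, 24 of them on the opposite strand, among them Cox4i1 with Emc8, Ndufs1 with Eef1b2 and Cox6a2 with Itgad. Reads in such an overlap were left out, so levels of these members are uncertain.

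For 66 members a promoter window of RefSeq (GRCm38.p6, 250 bases before to 50 after the start) was matched. A core of the sites bound by NRF1, a factor known to drive respiratory genes, GCGCATGC or its reverse complement GCATGCGC, occurred in 10 of them (15.2%), against 3.05% of 27025 genes with a window. A core of ETS sites, read by GABP among others, CCGGAAG or CTTCCGG, occurred in 16 (24.2%), against 9.93%. Both occurred in 5 (7.58%), against 0.618%. The 27025 are all genes with a window and were not matched to the members in level or base composition. These are matches of letters on either strand and not sites of binding.

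Genes that work with the nuclear subunits were measured as well. Of the 13 subunits encoded in mitochondrial DNA, 8 were tested, 0 were called by edgeR, and their median log2 fold change was -0.07. One of the 8, mt-Nd3, had an unadjusted edgeR p of 0.0438, where 8.64% of all genes were under 0.05, with 2.41, 10.3 and 3.57 CPM in controls and 2.58, 3.0 and 2.13 CPM in mutants. The mutants overlapped control 1, and control 2 stood above all others. The other 5, mt-Nd4l, mt-Co2, mt-Co3, mt-Atp6 and mt-Atp8, had between 0 and 12 counts in each library while mt-Co1 had 176912 to 294781, and these 5 were not tested. Reads with several alignments or several genes were left out of the counts. Low counts of these 5 and of mt-Nd3, beside mt-Nd1 at 2152 to 3414 CPM, are therefore not read as low levels. Their cause was not tested.

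Assembly factors insert cofactors and join subunits. Of 14 tested for complex I, 4 for complex II, 6 for complex III, 18 for complex IV and 3 for complex V, 0 were called by edgeR and 0 had an unadjusted p under 0.05. Groups did not overlap in 3 of them, Foxred1 and Tmem186 of complex I (higher in mutants) and Sdhaf4 of complex II (lower), chosen here after their values were seen, a smaller share than the 14.4% over all genes tested. Foxred1 had a log2 fold change of 0.14 (SE 0.09, edgeR adjusted p = 0.72).

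Among 12 regulators of respiratory gene transcription, 0 were called by edgeR and 1 had an unadjusted p under 0.05, where 8.64% of all genes did. This was Tfb2m, a factor needed to start transcription of mitochondrial DNA, at 8.27, 12.3 and 13.1 CPM in controls and 6.99, 7.43 and 7.57 CPM in mutants. All mutants lay below all controls, as in 7.62% of all genes tested, while groups did not overlap in either direction in 14.4%. The log2 fold change was -0.61 (SE 0.17, edgeR adjusted p = 0.33). Tfb2m was named after its values were seen, as the only 1 of the 12 regulators whose groups did not overlap. The carriers and subunits outside the name rule (7 tested), 8 genes of mitochondrial mass and 12 of the citrate cycle gave 0 calls by edgeR and 0 at an unadjusted p under 0.05, with median log2 fold changes of -0.01, 0.03 and 0.04.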

How the data were processed

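The authors trimmed single-end 50-base reads with Trim Galore 0.6.4, mapped them to GRCm38 with STAR 2.6.1d and counted them on exons with featureCounts 1.6.4. Per the file headers, strand was ignored and reads with several alignments or several genes were left out, so the deposited values are raw counts per gene, 1 table per library. The libraries came from a kit that keeps strand.

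Genes passing edgeR's filterByExpr (minimum count 10, total 15) were fitted in edgeR 4.0.16 with TMM factors and a quasi-likelihood test of genotype, adjusted after Benjamini and Hochberg over 16813 genes, with a threshold of 0.05. The study used litter as a covariate, which the labels do not give. CPM are TMM-scaled, and RPKM divide them by the union exon length. Intervals use the fit's moderated degrees of freedom. Counting error alone is covered by the limit of 3 counts. Alternatives were DESeq2 1.42.0, limma-voom 3.58.1, upper-quartile factors, a replicate block, no filter, at least 10 counts in every library, a Y-linked covariate, and each library left out. The pipeline was tested on simulated data. Shared 50-base stretches were searched in GENCODE M21 transcripts, in which 83 of 84 members were found, and copies were aligned with Biopython 1.88. Python 3.11.15 and R 4.3.3 were used. Pathways were described by counts and medians without a set test.

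Named were, in each complex, the members with the highest and lowest fold change and the highest length-scaled level, all Sdh subunits, core subunits and isoforms. Members and lists were chosen with earlier results of these data known. A whole-genome search and protein sequences were not used here.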

Additional observations from a re-analysis of the deposited data

How the results depend on the processing

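No member was called under edgeR, DESeq2, limma-voom, upper-quartile factors, either filter, the Y-linked covariate, the replicate block or any fit with 1 library left out. The labels do not say whether replicate numbers pair the libraries. Correlations of same-numbered deviations from the group means were -0.13, 0.0070 and -0.10. Centering within groups of 3 libraries constrains these values, so they cannot decide it. With the replicate block, 0 members were called by edgeR (0.0178% of all genes) and 0 by DESeq2 (0.571%). Without the filter on low counts, Cox8c and Cox4i2 had an unadjusted p under 0.05, where 7.29% of all genes did. With 1 library left out this held for Cox4i2 and Ndufs5 (without control 1), Cox7c and Cox7a2l (without control 2) and Ndufs7 (without mutant 3), against 9.76%, 8.39% and 7.34% of all genes in those fits. Members whose groups did not overlap then numbered 13, 3 and 5 without control 1, 2 and 3 and 2, 3 and 6 without mutant 1, 2 and 3, against 20.8% to 26.4% of all genes; with fewer samples overlap is less likely. The median over the members ran from -0.06 without control 1 to 0.07 without mutant 3.

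Of 30 named genes, 19 changed sign in at least 1 fit. Under upper-quartile factors the values were 0.0070 for Atp5a1, 0.0092 for Atp5g1 and 0.0051 for Cox6b1. With the Y-linked covariate they were 0.052 for Atp5a1, 0.042 for Atp5g1, 0.030 for Cox6b1, 0.061 for Cox7a1, 0.014 for Cox8a and 0.017 for Sdhb. Atp5g1 was at 0.0017 with the edgeR replicate block, 0.00034 with the DESeq2 one and 0.0022 in limma-voom, and Cox7a2l at -0.0019 without the filter. Ndufs5 was at 0.0038 with its copy added, an alternative chosen after seeing the data. The cause was not tested.

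With 1 library left out, the lowest and highest values were -0.044 and 0.070 for Atp5a1, -0.10 and 0.078 for Atp5g1, -0.030 and 0.13 for Atp5g2, -0.044 and 0.10 for Atp5g3, and -0.054 and 0.091 for Cox4i1. They were -0.14 and 0.26 for Cox6a2, -0.058 and 0.043 for Cox6b1, -0.37 and 0.35 for Cox7a1, -0.19 and 0.32 for Cox7a2l, -0.073 and 0.072 for Cox7b, -0.092 and 0.078 for Cox8a, and -0.16 and 0.32 for Cox8b. They were -0.0083 and 0.079 for Ndufv1, -0.079 and 0.036 for Sdhb, -0.022 and 0.087 for Sdhc, -0.044 and 0.063 for Sdhd, -0.033 and 0.11 for Uqcrc1, and -0.20 and 0.030 for Uqcrh. Cox8c and Cox7b2 were below the filter on low counts, and 3 libraries a group limit the precision of the other members.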
